A study of Mus musculus with 4 samples.

Results

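The genes described here are those whose symbols begin with Mapk, Map2k, Map3k, Map4k or Dusp, chosen by name alone, which takes in the kinases of the mitogen-activated protein (MAP) kinase cascades, several of their partners and substrates, and the dual-specificity phosphatases. In N6-methyladenosine (m6A) peak lists of the mouse heart, 58 such genes carried a peak in at least 1 genotype, of 12182 genes in all. They held 115 of 20766 peaks in control hearts and 115 of 21179 peaks in knockout hearts. The symbol rule also takes in genes that are no part of a cascade, such as Map2k3os, an RNA gene that lies beside Map2k3 on the opposite strand, and Mapkap1, which encodes a subunit of the mTORC2 kinase complex.

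m6A was mapped by MeRIP-seq: RNA fragments captured by an antibody to m6A are sequenced, as is the input RNA before capture. Hearts came from 4-day-old mice of 2 genotypes, Wtapflox/flox, which carry floxed alleles of the m6A writer subunit gene Wtap and are called control here, and Wtap-CKO, a conditional knockout, called knockout here. The knockout samples are titled WBKO, while their genotype label and peak list say CKO, and the genotype label was followed. The Cre driver, and so the cells that lost Wtap, is not given in the labels or design text used here. RNA of 7 control and 8 knockout mice was pooled by genotype, and each pool gave 1 immunoprecipitated (IP) and 1 input library. There was thus no replicate, no test between genotypes was possible, and intervals given with shares are exact (Clopper-Pearson) 95% intervals that cover counting error only.

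MAP kinase cascades pass signals from the cell surface to the nucleus in tiers. A MAP kinase kinase kinase phosphorylates a MAP kinase kinase, which phosphorylates a MAP kinase on a threonine and a tyrosine of its activation loop, and dual-specificity phosphatases remove both phosphates. In the heart, the ERK branch is known for its part in growth, and the p38 and JNK branches respond to stress and stretch. m6A is written on RNA by a methyltransferase complex to which Wtap belongs, and is known to bear on the stability and translation of transcripts.

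Each list gives, per peak, a fold enrichment (IP over input, linear) and a q value by the authors' caller. Both were computed within a genotype, so values from the lists are set side by side here and are no measure of transcript level or of a change in it. Counts of reads are not in the lists, and the depth of each library was unknown. A counterpart is a same-strand peak in the other genotype that shares 1 or more exonic bases, and peaks with q at or under 1e-10 are called strong. Positions are on mouse build GRCm39, and the place of peaks within transcripts (coding part or UTR) was not analysed here. All 10 heart muscle marker genes examined had peaks in both lists, with 52 control and 33 knockout peaks. Of their strong control peaks, 11 of 35 had no knockout counterpart, beside 0 of 6 for fibroblast markers, 0 of 5 for endothelial markers and 8.72% of all strong control peaks. Of strong knockout peaks, 2 of 25 in heart muscle markers, 3 of 11 in fibroblast markers and 2 of 7 in endothelial markers had no control counterpart, beside 4.04% of all. Fibroblast markers had 11 control and 17 knockout peaks, endothelial markers 11 in each list, smooth muscle and pericyte markers 10 and 13, and immune markers 3 in each, with no peak for Cd68 and Ptprc. The part of heart muscle content in the member counts was not tested, and the peak lists do not measure that content. In pooled tissue, fewer cells of a type, less RNA per cell and less m6A on the transcripts cannot be told apart.

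Most MAP kinase cascade genes carried m6A peaks in both genotypes, as did most genes overall. Of the 58 genes, 48 had peaks in both lists (82.8%, 70.6 to 91.4), beside 77.6% of all genes with a peak, and in 47 of them peaks overlapped between the lists. The control list alone held peaks of 7 genes (12.1%, 4.99 to 23.3), namely Mapk4, Mapkapk3, Map2k6, Map3k13, Dusp2, Dusp18 and Dusp28, where 10.5% of all genes with a peak were control-only. The knockout list alone held peaks of 3 genes (5.17%, 1.08 to 14.4), namely Mapk10, Map2k5 and Map3k12, where 11.9% of all genes were knockout-only. All 3 intervals include the share over all genes. The plot of peaks per gene shows the same genes tier by tier.

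**Figure D1:**
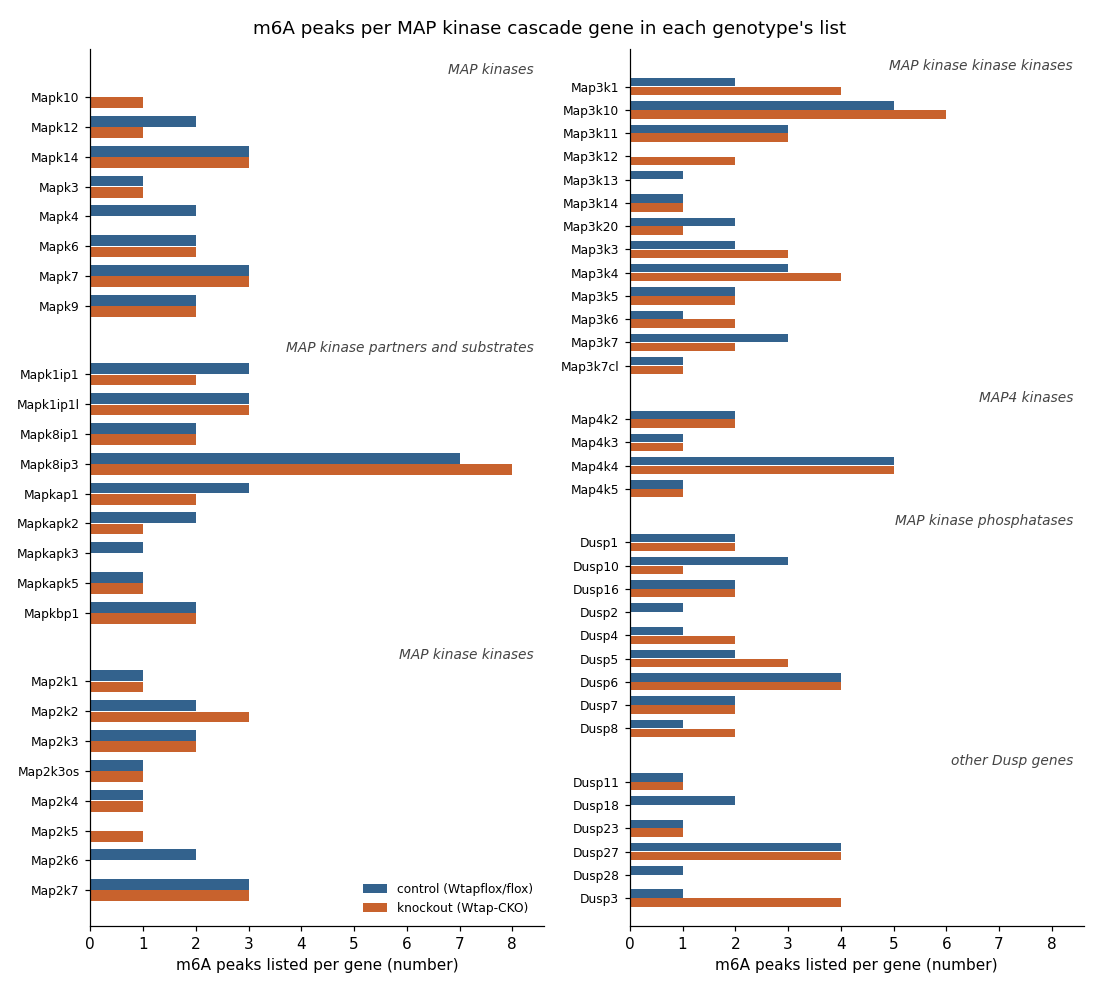
Number of m6A peaks listed for each of 57 of the 58 member genes (x axis) in the control (blue) and knockout (orange) lists, grouped by class. Mapk8ip3 has the most, with 7 control and 8 knockout peaks, and 10 genes have a bar in only 1 list.

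Of the control peaks of these genes, 23 of 115 (13.1 to 28.5%) had no knockout counterpart, beside 23.9% of all control peaks. A control counterpart was missing for 21 of their 115 knockout peaks (18.3%, 11.7 to 26.5), beside 24.5% of all knockout peaks. Among strong peaks, 7 of 70 control peaks (4.12 to 19.5%) had none, beside 8.72% over all genes, and 4 of 66 knockout peaks (6.06%, 1.68 to 14.8) had none, beside 4.04%. Each of these 4 intervals includes the share over all genes, so the members were not separated from the background by these counts. The same held for each of these 4 shares in each of the 7 classes described next, whose class counts are therefore descriptions. The strong control-only count rests on few genes, since Dusp10 held 3 of the 7 (4 of 67 without it).

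The members' peaks were wider and had smaller q than the typical peak of their list. The median member peak covered 331 exonic bases (control) or 329 (knockout), where the medians over all peaks were 270 and 241. Their median log10 q was -16.3 and -12.7, against -9.17 and -7.69 over all peaks. Their median fold was close to that of the lists, at 7.28 in the control (7.22 over all) and 6.94 in the knockout (7.03 over all). In the control list 35 of 55 member genes (63.6%) had 2 or more peaks, against 50.8% of all genes with a peak, and in the knockout list 33 of 51 did (64.7%, against 51.8%). No intervals were computed for these shares, so they do not separate the members from the background.

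Peaks without a counterpart were weaker than those with one in both genotypes. Control member peaks with a counterpart had a median log10 q of -22.3 and those without of -5.46, and in the knockout list these medians were -18.7 and -4.22. The same was seen over all peaks, with medians of -13.3 and -3.73 in the control and -11.9 and -3.2 in the knockout. Of the 21 knockout peaks without a counterpart, 9 lay within 1000 bases of a control peak of the same gene, and of the 23 control peaks 3 lay that close to a knockout peak. A further 10 of the 23 control peaks and 4 of the 21 knockout peaks lay in genes that had no peak at all in the other list. The shares over all genes for these distances and genes were not examined here, so the counts describe the members and show no trait particular to them.

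**Figure D2:**
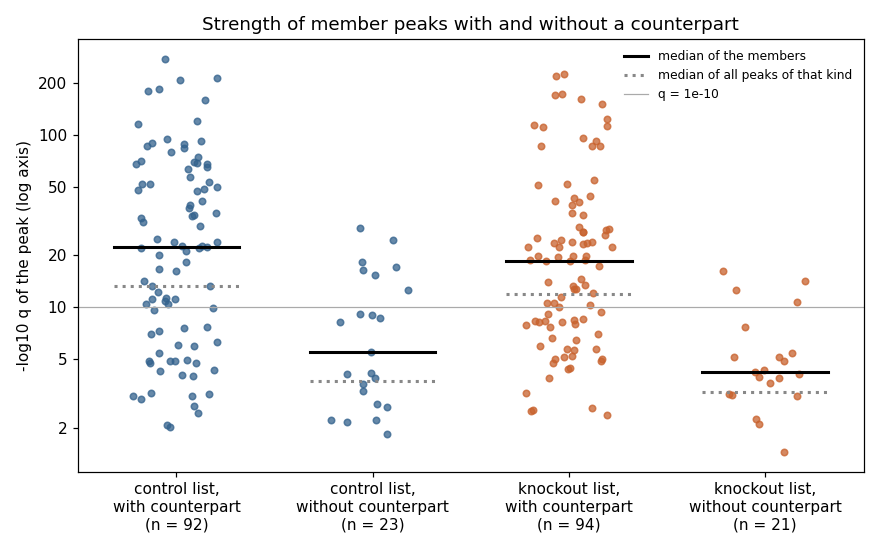
Each point is a member peak, with its -log10 q on a log axis, split by list and by whether a counterpart exists in the other list; black bars are medians over the members and dotted bars medians over all peaks of that kind. Peaks without a counterpart sit lower, with 7 control and 4 knockout peaks above the line at q of 1e-10.

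Among the MAP kinases themselves, all 8 strong control and 9 strong knockout peaks had a counterpart, where 8.72% and 4.04% of all strong peaks lacked one (intervals for these genes, 0 to 36.9% and 0 to 33.6%). Mapk3, which encodes the ERK-branch kinase ERK1, had a peak of 3 exonic blocks on chromosome 7 at 126358803 to 126359819 in the control (fold 12.7, log10 q -79.6), and the knockout peak shared its start (fold 41.9, log10 q -124). Mapk3 thus had a single multi-block peak in both lists.

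Mapk14, the gene of the main p38 kinase of the heart, had 3 peaks on chromosome 17, each with a counterpart. The peak at 28910393 to 28910752 had log10 q of -22.7 (control) and -26.3 (knockout). The peak at 28966181 to 28966541 had folds of 7.22 and 5.52 (log10 q -88.3 and -43.1). The peak at 28966781 to 28967350 had folds of 3.14 and 2.68 (log10 q -22.1 and -10.3). Mapk14 was therefore alike in the number and place of its peaks in both lists. Mapk12, which encodes another p38 kinase, shared a peak (control fold 10.4, knockout fold 17.8), and a further peak was control-only (fold 3.26, log10 q -8.68).

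Mapk7, which encodes ERK5, a kinase with a long regulatory tail, had 3 peaks in each list on chromosome 11. The control peaks at 61380953 to 61381401 (fold 14.7) and 61381491 to 61382507 (fold 10.6) both overlapped a knockout peak of 1555 bases at 61380923 to 61382477 (fold 20.9), so the lists cut this stretch differently. Its knockout-only peak at 61384985 to 61385074 was weak (log10 q -3.15) and lay 477 bases from a control peak. Mapk6, which encodes the atypical kinase ERK3, had 2 peaks in each list with folds of 2.77 and 15.3 in the control and 9.38 and 8.51 in the knockout, in the same order.

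Of the JNK genes, 2 had peaks. Mapk9, which encodes JNK2, had 2 control peaks on chromosome 11, the first from 49737578 to 49745084 (fold 8.82, log10 q -6.00) and the second from 49774170 to 49774260 (fold 1.94, log10 q -4.86). Both overlapped knockout peaks, the first strong (fold 6.36, log10 q -14.0) and the second weaker (fold 2.39, log10 q -5.72). Mapk10, which encodes JNK3, a form best known from the brain, had a lone knockout peak of 91 bases (fold 9.38, log10 q -1.44). Mapk4, which encodes the atypical kinase ERK4, had 2 control-only peaks on chromosome 18, at 74063597 to 74063717 and 74103083 to 74103233 (log10 q -1.83 and -2.64). These peaks of Mapk10 and Mapk4 included the weakest member peak of each list. No peak was listed for Mapk8, Mapk11, Mapk13 or Mapk15.

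Of the 8 MAP kinase kinase symbols, 6 had peaks in both lists. The ERK branch genes were among them. Map2k1, which encodes MEK1, had a peak of 2 blocks on chromosome 9 at 64121745 to 64160883 (fold 8.32 in the control, log10 q -33.1) and a knockout counterpart with a fold of 7.76 (log10 q -51.1). Map2k2, which encodes MEK2, shared 2 peaks on chromosome 10. The first, at 80959476 to 80959806 in the control, had a log10 q of -56.8 there and of -7.69 in the knockout, while its folds were alike (4.25 and 4.62). The second, at 80959956 to 80960105, had folds of 2.52 and 2.98. Map2k2 also had a strong knockout-only peak of 3 blocks at 80941839 to 80944588 (fold 2.43, log10 q -14.2), which lay 14887 bases 5′ of its nearest control peak.

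The genes of the p38 activators Map2k3 and Map2k6 differed in the lists. Map2k3 shared 2 peaks on chromosome 11. The peak at 60842980 to 60843518 had a control fold of 6.72 (log10 q -63.6) and a knockout fold of 3.52 (log10 q -35.4), and the peak at 60822889 to 60823068 had folds of 6.15 and 3.25. Map2k6 had 2 control peaks on chromosome 11 and none in the knockout list. Its strong peak at 110403650 to 110403919 had a fold of 8.92 and a log10 q of -17.2, and the other, at 110381639 to 110383396, a log10 q of -2.21. No level of Map2k6 RNA is given by the lists, so an absent peak and an absent transcript cannot be told apart.

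The JNK activator genes Map2k4 and Map2k7 carried some of the strongest peaks of the tier. Map2k4 had a peak of 2 blocks on chromosome 11 that covered 1078 exonic bases in the control (65580593 to 65582593, fold 9.06, log10 q -121) and 569 in the knockout (65581072 to 65582563, fold 3.54, log10 q -25.1). Map2k7 had 3 peaks on chromosome 8, of which the one at 4296521 to 4297030 had folds of 9.85 and 8.65 and log10 q of -159 and -152. The other peaks of Map2k7, at 4288860 to 4290170 (folds 2.64 and 13.1) and 4295774 to 4296162 (folds 6.40 and 4.03), overlapped peaks of the predicted gene Gm49320 on the same strand in both lists, and these genes cannot be told apart there. Map2k5, the activator of ERK5, was listed only in the knockout, with a chromosome 9 peak from 63071140 to 63071350 (fold 3.21, log10 q -5.13). Map2k3os had a peak in each list, of 558 bases in the control (fold 13.8) and 89 in the knockout (fold 7.03).

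The MAP kinase kinase kinases were the largest class, with 13 genes, 26 control and 31 knockout peaks. Of these, 4 control and 9 knockout peaks had no counterpart, and 1 of 17 strong control and 1 of 15 strong knockout peaks. These shares were 15.4% and 29.0% (23.9% and 24.5% over all peaks), and 5.88% and 6.67% among strong peaks (8.72% and 4.04% over all). Of the 9 knockout-only peaks, 2 belonged to Map3k12, 2 to Map3k1 and 2 to Map3k10. The strong control-only peak was that of Map3k20, which encodes ZAK, a kinase that senses stalled ribosomes. It lay on chromosome 2 at 72232399 to 72232669 (fold 3.63, log10 q -15.4), 39177 bases 5′ of the nearest knockout peak, and the 3′ peak of the gene at 72272026 to 72272505 was shared (folds 22.5 and 24.4). The strong knockout-only peak was that of Map3k3, which encodes MEKK3, from 106045676 to 106045825 of chromosome 11 (fold 4.60, log10 q -12.6). It began 148 bases after the end of the control's main Map3k3 peak at 106044812 to 106045527, which had a fold of 25.1 and a log10 q of -186 and a knockout counterpart with a fold of 27.8 and a log10 q of -172. The Map3k3 peak was thus among the strongest of the members in both lists, and the single-list peak lay beside it.

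The mixed-lineage kinase genes Map3k10 and Map3k11 had many peaks. Map3k10 had 5 control and 6 knockout peaks on chromosome 7, the most of its class, led by a shared peak at 27355949 to 27356366 (folds 14.6 and 17.2, log10 q -48.6 and -39.0), where a peak of Ttc9b lies on the opposite strand. The other control peaks of Map3k10 had folds between 2.41 and 7.26, and its knockout-only peaks lay at 27357404 to 27357493 (fold 3.13) and 27362725 to 27363649 (fold 14.1). Map3k11 had 3 peaks on chromosome 19, of which 2 had identical start and end in both lists. The first, at 5739750 to 5740795, had folds of 15.6 and 19.2 (log10 q -51.6 and -85.9), and the second, at 5745828 to 5746749 with 3 blocks, had folds of 8.71 and 6.81. In the knockout list a peak of Gm50315 overlapped the first on the opposite strand. The third, at 5752146 to 5752833, had log10 q of -95.1 and -113. Map3k11 was singled out for these ends after its values were seen. Over 85 pairs of member peaks that overlapped each other and no other peak of their gene, 3 (3.53%) had both ends alike, against 9.52% of such pairs over all genes.

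Map3k1, which encodes MEKK1, had 2 shared peaks on chromosome 13, at 111885085 to 111885474 (folds 8.06 and 6.44) and 111892304 to 111892752 (folds 32.5 and 74.1, the highest member fold in the knockout list). The second had the larger q in the knockout (log10 q -33.7 in the control, -19.8 in the knockout). Map3k1 also had 2 weak knockout-only peaks (log10 q -3.09 and -4.11). Map3k5, which encodes ASK1, a kinase activated by oxidative stress, had 2 shared peaks on chromosome 10. The peak at 19810248 to 19810818 had folds of 12.6 and 46.0 with log10 q of -10.5 and -11.5. The peak at 20017330 to 20017780 had folds of 6.56 and 3.48 with log10 q of -18.2 and -3.87. Map3k7, which encodes TAK1, a kinase downstream of TGF-beta and interleukin 1 receptors, had a shared peak on chromosome 4 at 32019524 to 32019912 whose control log10 q was -74.2 and knockout log10 q -19.6 (folds 8.33 and 3.44). It shared a second peak at 31964157 to 31974836 (folds 3.81 and 5.36) and had a weak control-only peak at 32023168 to 32023288 (log10 q -4.07).

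The remaining genes of this tier had few or weak single-list peaks. Map3k4, which encodes MEKK4, had 3 shared peaks on chromosome 17, at 12446598 to 12448443, 12489789 to 12490388 and 12490537 to 12490897. Their control folds were 9.33, 9.29 and 6.49, and their knockout folds 4.35, 8.44 and 4.15. Its knockout-only peak at 12490986 to 12493543 was weak (log10 q -4.32) and lay 88 bases from the nearest control peak. Map3k6, which encodes ASK2, shared a peak (folds 7.49 and 7.19) and had a knockout-only peak 11453 bases from it (log10 q -5.11). Map3k14, which encodes the NF-kappa-B-inducing kinase, shared a peak with folds of 19.7 and 8.75. Map3k12 and Map3k13 encode the related kinases DLK and LZK, and each had peaks in only 1 list. Map3k12 had 2 knockout peaks on chromosome 15, the first from 102409548 to 102409848 (fold 4.69, log10 q -4.22) and the second from 102425289 to 102425469 (fold 18.8, log10 q -3.86), and Map3k13 had 1 control peak (fold 9.62, log10 q -2.22). Map3k7cl, named for its likeness to the end of TAK1, shared a weak peak (log10 q -2.43 and -2.60).

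All 9 control and 9 knockout peaks of the MAP4 kinases, Ste20-type kinases that act above the cascades, had a counterpart. The interval for 0 of 9 without one runs to 33.6% and includes the 23.9% and 24.5% over all peaks. Map4k4 had 5 peaks in each list on chromosome 1. Its peak of 5 blocks at 40025866 to 40038873 was the strongest member peak of the knockout list (log10 q -227, fold 34.5) and had a log10 q of -179 and a fold of 10.1 in the control. The neighbouring peak at 40039022 to 40039758 had identical ends in both lists, with folds of 15.8 and 5.44. Within Map4k4, the larger fold was thus in the knockout list for one peak and in the control list for the next. Map4k3 shared a peak with folds of 5.27 and 18.5. Map4k2 shared 2 peaks on chromosome 19, at 6403577 to 6403787 (folds 1.93 and 2.37) and 6404716 to 6405136 (folds 3.55 and 3.84), and Map4k5 shared a peak with folds of 3.46 and 5.63 at a place where Atl1 had a peak on the other strand in both lists. In 8 of the 9 pairs of this class, most of them of Map4k4, the fold listed in the knockout was the larger. Over all 85 member pairs it was in 43 (50.6%), beside 50.8% over all genes. Other classes had 6 of 11 such pairs (MAP kinases), 8 of 17 (partners and substrates), 3 of 10 (MAP kinase kinases), 9 of 20 (MAP kinase kinase kinases) and 2 of 7 (other Dusp genes).

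The MAP kinase phosphatases, which switch the kinases off, held 4 of the 7 strong control-only peaks. These were 4 of the class's 15 strong control peaks (26.7%, 7.79 to 55.1), beside 8.72% over all genes, and came from 2 genes, Dusp10 and Dusp16. Dusp10, whose product acts on p38 and JNK, had 3 control peaks on chromosome 1, none with a counterpart. The first, at 183769334 to 183769811, had a fold of 15.1 and a log10 q of -24.5. The second, at 183806551 to 183806819, had a fold of 6.42 and a log10 q of -16.4, and the third, at 183807088 to 183807416, a fold of 7.27 and a log10 q of -18.4. The only knockout peak of Dusp10 covered 120 exonic bases at 183766656 to 183769006 (fold 22.5, log10 q -4.88), ending 327 bases 5′ of the first control peak. Dusp10 was therefore listed in both genotypes without a shared exonic base.

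Dusp16, which also prefers p38 and JNK, gave the fourth. Its control-only peak lay on chromosome 6 at 134737943 to 134738243 (fold 4.30, log10 q -12.6), 40440 bases 5′ of the nearest knockout peak. Its main control peak at 134694830 to 134697532 covered 1261 exonic bases with a fold of 55.9, the highest member fold in that list, and overlapped 2 knockout peaks with folds of 5.33 and 3.75. The Dusp16 stretch was thus listed as 1 peak in the control and 2 in the knockout. Dusp4, a nuclear phosphatase gene, went the other way. Its strong knockout-only peak spanned 35274481 to 35275106 of chromosome 8 (fold 12.8, log10 q -16.2), 10810 bases 5′ of its control peak at 35285917 to 35286214, which was shared (fold 12.8 in the control, 8.63 in the knockout).

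**Figure D3:**
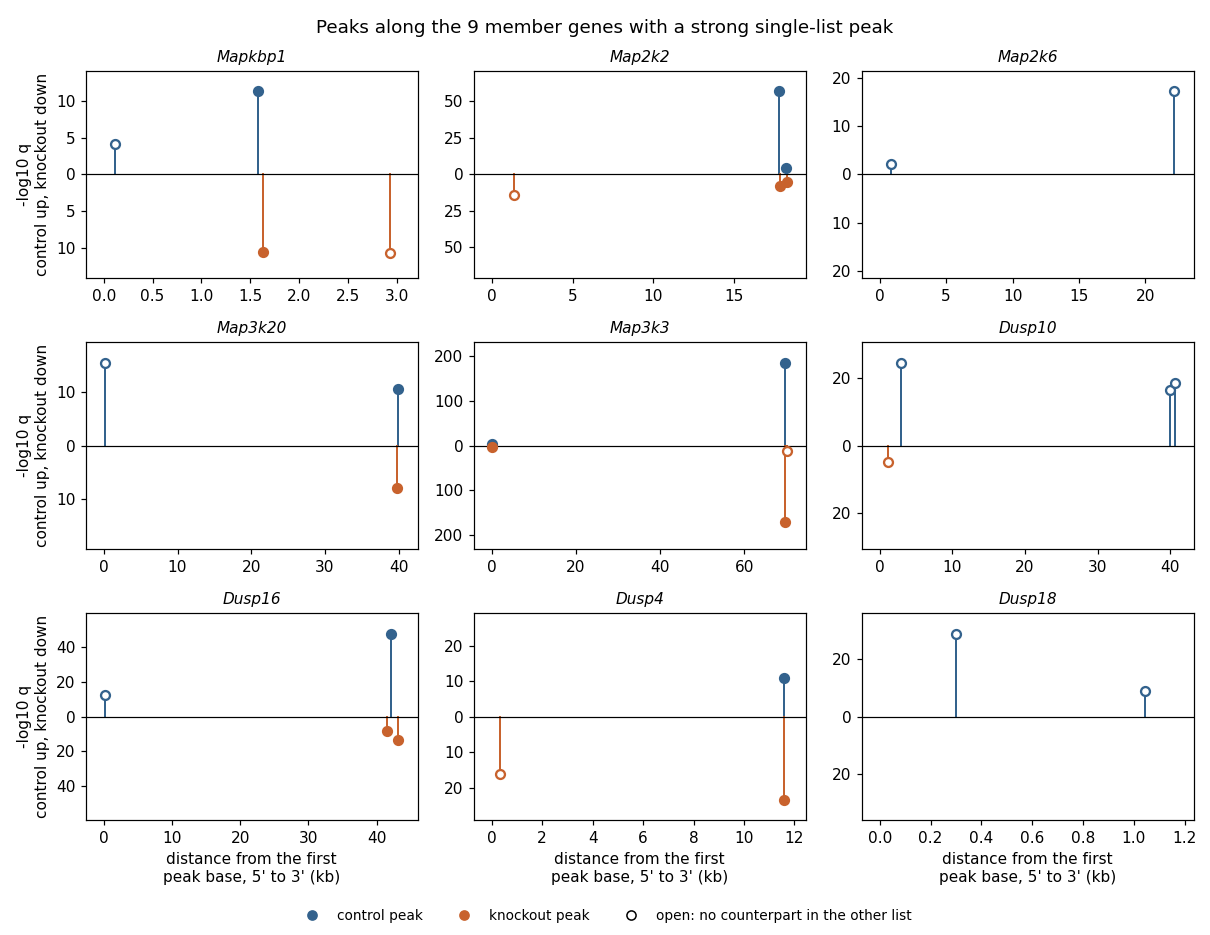
Peaks along the 9 member genes with a strong single-list peak, by distance in kb from the first peak base of the gene in the direction of transcription; stem height is -log10 q, control upward and knockout downward, and open circles have no counterpart in the other list. Dusp10, Map2k6 and Dusp18 have open circles only, while in Map3k20, Dusp16, Dusp4 and Map2k2 the open circle of a strong peak is the most 5′ of the gene.

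The ERK phosphatase genes Dusp5, Dusp6 and Dusp7 had a knockout counterpart for every control peak. Dusp6, which encodes a cytoplasmic ERK phosphatase and a feedback inhibitor, had 4 peaks in each list on chromosome 10, between 99099153 and 99102576 in the control. From 5′ to 3′ their control folds were 6.42, 12.2, 3.41 and 2.80, and their knockout folds 5.39, 8.86, 2.99 and 5.12. The second peak, at 99100411 to 99100829, was the strongest (log10 q -65.2 and -96.5). Each Dusp6 peak thus had 1 counterpart. Dusp7, which encodes a related cytoplasmic phosphatase, had 2 shared peaks. The more 5′ had log10 q of -16.3 and -41.0 in control and knockout. The more 3′ had folds of 12.8 and 30.9, but its q was smaller in the control (log10 q -68.3, beside -55.0 in the knockout). Dusp5, which encodes a nuclear ERK phosphatase, had 2 control and 3 knockout peaks on chromosome 19. Its control peak at 53529432 to 53530385 (fold 16.6, log10 q -51.8) overlapped 2 knockout peaks (folds 4.53 and 7.44). Its other peak, at 53517629 to 53517778, had a fold of 4.28 and a log10 q of -2.94 in the control and 38.4 and -9.38 in the knockout, and a peak of Gm50394 overlapped it on the other strand in both lists.

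Dusp1, an immediate early gene whose nuclear product acts on p38, JNK and ERK, had 2 shared peaks on chromosome 17. The peak at 26724862 to 26725936 had a fold of 7.28 and a log10 q of -92.0 in the control and 19.7 and -170 in the knockout. The peak of 2 blocks at 26727063 to 26771027 had a fold of 11.2 and a log10 q of -41.3 in the control and 23.4 and -86.7 in the knockout. Both places had the larger fold and the smaller q in the knockout list. Dusp8 shared a peak (folds 14.9 and 22.7, log10 q -49.9 and -52.0) and had a knockout-only peak with a fold of 24.4 and a log10 q of -5.40. Dusp2, an immediate early gene of immune cells, had a weak control-only peak (fold 11.2, log10 q -3.24). In 7 of 11 pairs of the MAP kinase phosphatases the listed fold was larger in the knockout, and in 10 of 11 the q was smaller there. These 11 leave out the main peaks of Dusp16 and Dusp5, split in the knockout list, where each part had a larger q than the control peak, and the 3 unmatched Dusp10 peaks. Over all member pairs the q was smaller in the knockout in 47 of 85 (55.3%, beside 49.0% over all genes). By class it was so in 8 of 11 pairs (MAP kinases), 7 of 9 (MAP4 kinases), 7 of 17 (partners and substrates), 4 of 10 (MAP kinase kinases), 8 of 20 (MAP kinase kinase kinases) and 3 of 7 (other Dusp genes). No peak was listed for Dusp9.

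Among the other Dusp genes, Dusp18 had the strongest control-only peak of all members. It lay on chromosome 11 at 3847442 to 3848039 (fold 5.83, log10 q -28.8, a smaller q than 75.7% of control peaks), and a second control-only peak followed at 3848368 to 3848607 (fold 4.29, log10 q -9.08). The knockout list held no Dusp18 peak. Dusp3, which encodes the small phosphatase VHR, had the strongest member peak of the control list, on chromosome 11 at 101864175 to 101864623 (log10 q -278, fold 14.9). Its counterpart had a log10 q of -221 and a fold of 12.3, and 3 weak knockout-only peaks lay within 1000 bases (folds 1.51 to 1.94). Dusp27, whose product is a catalytically inactive protein of striated muscle, had 4 peaks in each list on chromosome 1, all shared. Its leading control peak covered 841 bases at 165925717 to 165926557 (fold 8.52, log10 q -209), and the knockout peak covered 541 (fold 3.98, log10 q -86.5). The widest member peak of the control list was also in Dusp27, with 1380 bases at 165927546 to 165928925 (folds 12.2 and 8.09). Dusp11, which encodes a phosphatase of RNA, shared a peak (folds 6.77 and 3.52), Dusp23 shared a peak (folds 4.30 and 9.97), and Dusp28 had a control-only peak (fold 3.04, log10 q -5.46).

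The genes for MAP kinase partners and substrates had a counterpart for all 12 strong control peaks (0 to 26.5% without one, beside 8.72% over all). Over all strengths, 6 of their 24 control peaks had none (9.77 to 46.7%, beside 23.9% over all). Mapk8ip3, which encodes the JNK scaffold JIP3, a cargo adaptor of axonal transport, had 7 control and 8 knockout peaks on chromosome 17, all with a counterpart. Its widest control peak covered 1050 bases at 25114761 to 25115810 (fold 9.22, log10 q -213) and overlapped 2 knockout peaks with folds of 1.75 and 15.0 (log10 q -22.4 and -23.6). Peaks of Mrps34 and Nme3 lay on the opposite strand there, and the 2 most 3′ Mapk8ip3 peaks overlapped peaks of Eme2 on the same strand in both lists. The Mapk8ip3 values are therefore uncertain at those 3 places. The other control peaks had folds of 2.41, 3.45, 12.7 and 4.41 from 3′ to 5′, beside 1.62, 3.33, 4.69 and 9.65 for their counterparts. Mapk8ip1, which encodes the scaffold JIP1, shared a peak (folds 18.4 and 28.1) and had a weak single-list peak in each genotype (log10 q -2.75 in the control, -3.03 in the knockout).

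Mapkapk2, which encodes the p38 substrate kinase MK2, shared a strong peak on chromosome 1 (folds 5.34 and 9.81, log10 q -67.9 and -112) and had a control-only peak with a fold of 1.75 and a log10 q of -8.98. Mapkapk3, the gene of its close relative MK3, had a control-only peak (fold 3.74, log10 q -8.20). Mapkapk5, which encodes a further kinase of this family, shared a peak whose control fold was 8.29 and whose knockout fold was 62.8, where it overlapped a knockout peak of the predicted gene Gm42878. Mapkbp1, which encodes a JNK-binding protein, had 2 peaks in each list on chromosome 2, of which the one at 119855615 to 119856064 was shared (folds 7.82 and 6.10) at a place where Gm13999 had a peak on the other strand. The control-only peak of Mapkbp1 at 119854258 to 119854497 was weak (log10 q -4.13), while its knockout-only peak at 119857081 to 119857290 was strong (fold 6.48, log10 q -10.7). The control-only peak lay 5′ and the knockout-only peak 3′ of the shared one. Mapkap1 shared 2 peaks (folds 8.82 and 4.37 in the control, 9.16 and 2.93 in the knockout). Mapk1ip1 shared 2 peaks (folds 9.62 and 7.80 in the control, 8.89 and 2.95 in the knockout). Each also had a weak control-only peak, with a fold of 2.1 and a log10 q of -2.15 in Mapkap1 and 10.4 and -3.88 in Mapk1ip1. Mapk1ip1l had 3 shared peaks on chromosome 14, at 47547938 to 47548268, 47556881 to 47557121 and 47559371 to 47559671. Their control folds were 7.98, 4.77 and 6.06, and their knockout folds 2.42, 2.56 and 6.94.

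**Figure D4:**
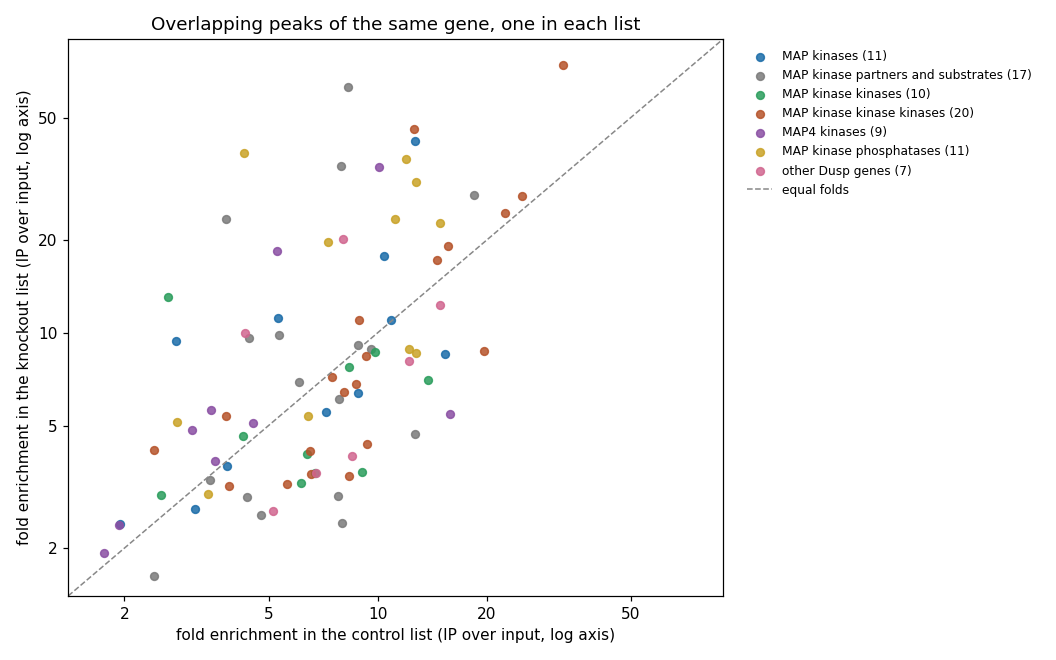
Fold enrichment (IP over input, log axes) in the control list (x) and the knockout list (y) for 85 pairs of member peaks that overlapped each other and no other peak of their gene, coloured by class with the number of pairs, with a dashed line at equal folds. Of the pairs, 43 lie above the line; Map3k1 is the highest point, at folds of 32.5 and 74.1.

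Of 78 protein-coding genes whose RefSeq symbols fit the rule, 57 (73.1%, 61.8 to 82.5) had a peak in either list, beside 47.9% of 21900 protein-coding symbols. All 7 MAP kinase kinase genes had one, as did 9 of 13 MAP kinases, 13 of 19 MAP kinase kinase kinases, 4 of 5 MAP4 kinases, 9 of 10 MAP kinase phosphatases and 6 of 14 other Dusp genes. Expression in the heart bears on which transcripts can yield a peak, and its part in this difference was not tested. Both shares were matched by symbol alone, so genes renamed between the sources counted as having no peak, which was not tested either. Besides those named above, no peak was listed for Map3k2, Map3k8, Map3k9, Map3k15, Map3k19, Map3k21, Map4k1, Mapk8ip2 or the 8 further Dusp genes Dusp12, Dusp13, Dusp14, Dusp15, Dusp19, Dusp21, Dusp22 and Dusp26.

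The wider pathway was read from a list of 105 genes outside the symbol rule. Of these, 83 had a peak, 72 of them in both lists, 5 in the control only (Atf2, Elk1, Mknk1, Rasal2 and Tab3) and 6 in the knockout only (Cdc42, Fosb, Mef2d, Nlk, Rras2 and Taok1). For comparison, 47.9% of all protein-coding symbols had a peak, matched by symbol alone as above. Of all genes with a peak, 77.6% had peaks in both lists, 10.5% were control-only and 11.9% knockout-only. Among the listed pathway genes, a knockout counterpart was missing for 5 of their 88 strong control peaks (5.68%, 1.87 to 12.8), beside 8.72% over all genes. A control counterpart was missing for 1 of their 99 strong knockout peaks (1.01%, 0.0256 to 5.50), beside 4.04%, and both intervals include the share over all genes. Over all strengths, 26 of 162 control peaks (16.0%, 10.8 to 22.6, beside 23.9%) and 30 of 176 knockout peaks (17.0%, 11.8 to 23.4, beside 24.5%) had none. These 2 intervals lie below the share over all genes, but they cover counting error only and peaks of 1 gene are not independent. The 5 control peaks belonged to 4 genes. Gab1, which encodes a docking protein of receptor tyrosine kinases, held 2 of them on chromosome 8 (81511286 to 81511495 and 81515237 to 81515566, both with a fold of 3.27). Sos1, which encodes an exchange factor that loads Ras with GTP, held 1 from 80741308 to 80741547 of chromosome 17 (fold 9.51, log10 q -12.6), while Ssh2, a slingshot phosphatase gene, held 1 on chromosome 11 at 77346941 to 77347211 (fold 2.83, log10 q -12.7). The fifth was in the p38 target gene Mef2a (fold 2.92, log10 q -38.4), and the knockout peak was in Mef2d (fold 4.96, log10 q -12.8). Other upstream kinases and binding partners on this list had no strong single-list peak among 19 strong control and 20 strong knockout peaks. The same held for its downstream kinases (3 and 4 strong peaks), inhibitors of Ras signalling (13 and 16), and Raf kinases and scaffolds (5 and 5). Beside 8.72% and 4.04% over all genes, these numbers are too small to set such groups apart.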

How the data were processed

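Per the series' design text, exomePeak (2.16.0) called peaks in each genotype's pooled IP with its input as background, keeping q up to 0.05. Per the submitters' processing notes, reads passed through other tools, whose roles are not given: HOMER 4.9.1, BWA 0.7.12 and fastp 0.19.11, on GRCm39. Each deposited fold enrichment is the authors' ratio between IP and input. The deposited log10 p and log10 q of the authors were handled as a score, because some are minus infinity. Read counts were not used here, so depth could not be examined.

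Starts were made 1-based, and overlaps computed in Python 3.11.15 (pandas 2.3.3, numpy 2.4.6) after being tested on simulated data. Intervals came from scipy 1.17.1, and matplotlib 3.10.9 drew the plots. Any member could be named, except 1 that is counted but not reported here. Positions were set for members with a strong single-list peak, the 2 with most peaks per class, those with 2 or more peaks in only 1 list, and core genes of each tier. Others were singled out after their values were seen. Members and lists were chosen with earlier results of these data known. RefSeq symbols (GRCm38.p6) served for names only. No genome of the files' build was used here, so no peak sequence is printed.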

Additional observations from a re-analysis of the deposited data

How the results depend on the processing

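The 6 counts of peaks and genes without a counterpart were recomputed under alternatives, giving 68 values. Of these 57 stayed within 1.5 times the reported count, and 11 moved by more. Asking for an overlap of 50% of both peaks gave 33 knockout peaks without a control counterpart (21 as reported), 13 strong control peaks (7 as reported) and 9 strong knockout peaks (4 as reported); over all genes these shares went to 39.7%, 20.7% and 14.2%. A fold of at least 4 in both lists gave 17 strong control peaks of 66 without a counterpart (21.2% over all genes), a setting that also removes counterparts below that fold. Strong peaks at q at or under 1e-05 gave 12 of 85 in the control (13.0% over all genes) and 8 of 90 in the knockout (9.02%). At q at or under 1e-20 they were 2 of 52 in the control (6.27% over all genes, here Dusp10 and Dusp18) and 0 of 41 in the knockout (1.43%). An alternative added after the data were seen took kinases and MAP kinase phosphatases only. There 14 of 79 control peaks (23.9% over all) and 4 of 41 genes (10.5% over all) were control-only, since fewer genes were counted. Without Dusp10, also added later, 4 of 67 strong control peaks had no counterpart (8.72% over all genes). Leaving out Mapk8ip3 (the member with most peaks), matching whole spans, ignoring strand and equalising the lists at 20766 peaks moved none of the counts they were run on by over 1.5 times. No paired analysis was possible because each genotype had 1 pooled IP and 1 pooled input library, so no replicate could be left out either, and the unknown depth limits what a missing peak shows.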
